A study of Mus musculus with 6 samples.

Results

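The acrosome is the vesicle that caps the nucleus of the sperm head, and the transcripts of 10 of its proteins or assembly factors (Acr, Acrbp, Zpbp, Zpbp2, Spaca1, Spaca3, Spaca4, Spaca7, Dpy19l2 and Gopc) were followed in whole testis. The genes were chosen by name as secretory-pathway genes of spermatids, with earlier results of these data known, and were matched by GENCODE M21 symbol to the Ensembl identifiers of the count tables. All 10 were found among 55536 genes, and all 10 were among the 21465 genes with enough counts to be tested. Testis RNA came from 3 KOStra8 mice (Sel1L flox/∆; Stra8-Cre) and 3 HETStra8 littermates, all male and 7 weeks old. The deposited design gives HETStra8 as Sel1L flox/∆, while the study's methods also count Sel1L flox/+; Stra8-Cre males as heterozygotes, and no genotype per mouse was given beyond the group name. Cre under the Stra8 promoter acts in male germ cells, so SEL1L is left in Sertoli cells and other somatic cells of the same tissue. The study also still saw SEL1L in spermatogonia of KOStra8 mice, where it describes the activity of this Cre as partial. The labels give each mouse a number and nothing that ties a number to a litter or day.

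The acrosome is built in spermatids from vesicles that leave the Golgi and fuse on the nuclear envelope. Its enzymes and membrane proteins enter the endoplasmic reticulum as they are made, where SEL1L, the adaptor of the HRD1 ubiquitin ligase, serves in the removal of misfolded proteins. Loss of several of the genes described here, among them Dpy19l2, Gopc, Spaca1 and Zpbp, is known to give round-headed sperm with a missing or malformed acrosome.

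Sel1l itself, the check of the labels, was at 49.3, 47.6 and 42.4 CPM (counts scaled to the library total, here adjusted by edgeR's trimmed mean of M-values, TMM) in HETStra8 mice 1, 2 and 3. In KOStra8 mice 1, 2 and 3 it was at 24.2, 22.0 and 20.3 CPM. Every KOStra8 mouse lay below every HETStra8 mouse, and Sel1l fell by 1.07 on the log2 scale (SE 0.104, edgeR adjusted p = 0.00061). Library totals lay between 28875108 and 36526695 counts, and the common biological coefficient of variation (CV) between mice was 0.160.

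No acrosome transcript of the 10 passed the test between genotypes. At an edgeR adjusted p under 0.01 and a fold over 2, 0 of 10 were called, beside 0.00932% of all genes tested, and at an adjusted p under 0.05 at any fold 0 of 10 were called, beside 0.0233% of all genes. At an unadjusted p under 0.05, 2 of 10 (Zpbp and Gopc) were higher in KOStra8 and 0 were lower, beside 7.13% and 5.12% of all genes. That count of higher members was 4 without HETStra8 mouse 3 and 0 with any other mouse left out. Over all genes, 4375 of 22091 had such a p in either direction without HETStra8 mouse 3, beside 2630 of 21465 with all mice. The DESeq2 Wald test likewise called 0 of 10 at an adjusted p under 0.05. The 10 log2 fold changes ran from -0.16 (Spaca4) to 0.21 (Gopc), 5 above 0 (beside 48.5% of all genes) and 5 below, with a median of 0.02 beside -0.01 over all genes tested. The 95% intervals of the 10 folds, KOStra8 over HETStra8, all lay between 0.769 (the lower bound of Spaca4) and 1.33 (the upper bound of Gopc), so a 2-fold difference in either direction was outside each interval. In bulk tissue, fewer spermatids and less of a transcript per spermatid cannot be told apart.

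**Figure D1:**
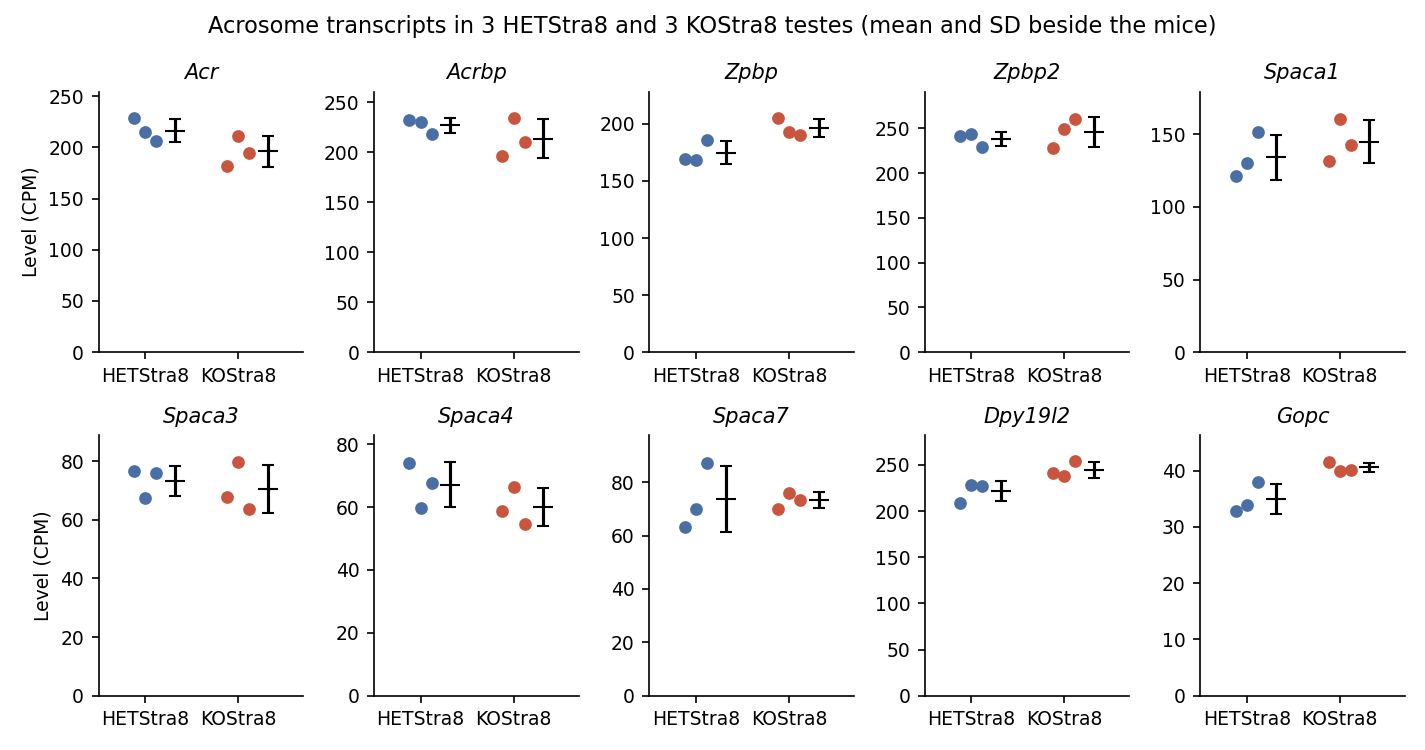
Level of each acrosome transcript in CPM (y axis, from 0) in each HETStra8 mouse (blue points) and each KOStra8 mouse (red points), with the mean and SD of the 3 mice drawn beside them. The KOStra8 points lie above all HETStra8 points for Zpbp, Dpy19l2 and Gopc, and the groups overlap for the other 7 genes.

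The promoters below are shown because they let the members whose genotype groups did not overlap (Zpbp, Dpy19l2 and Gopc) be read beside Acrbp and Spaca1, in which both searched motifs were found. A contrast in motifs among the genes shown is thus set in part by this choice. RefSeq promoters on GRCm38.p6 were matched for 9 of the 10 genes, all but Acr. Each line holds the 250 bases before the RefSeq start, 5′ to 3′ on the gene's strand. By GENCODE M21 the Acrbp gene starts at chr6:125049689 and the Spaca1 gene at chr4:34050191, both inside these windows. The marked matches of Acrbp and Spaca1 all lie downstream of the GENCODE start. The windows of Zpbp, Dpy19l2 and Gopc lie wholly upstream of it. Capitals mark matches, on either strand, to TGACG, the core of the cAMP response element (CRE) that CREM binds in spermatids, or to GTTGCC or GTTACC, an arm of the X-box that RFX factors bind. Acrbp is at chr6:125049677-125049926 (+), Spaca1 at chr4:34050066-34050315 (-), Zpbp at chr11:11462420-11462669 (-), Dpy19l2 at chr9:24696294-24696543 (-) and Gopc at chr10:52382125-52382374 (-).
Acrbp: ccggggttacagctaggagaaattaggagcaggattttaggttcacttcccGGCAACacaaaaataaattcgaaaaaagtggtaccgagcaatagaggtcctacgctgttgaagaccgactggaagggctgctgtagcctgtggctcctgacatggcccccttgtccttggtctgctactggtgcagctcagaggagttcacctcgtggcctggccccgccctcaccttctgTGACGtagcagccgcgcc
Spaca1: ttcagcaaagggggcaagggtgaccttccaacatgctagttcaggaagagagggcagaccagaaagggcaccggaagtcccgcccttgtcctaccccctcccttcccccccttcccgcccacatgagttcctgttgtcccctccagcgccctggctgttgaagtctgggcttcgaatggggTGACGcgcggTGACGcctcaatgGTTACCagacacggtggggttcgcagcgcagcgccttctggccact
Zpbp: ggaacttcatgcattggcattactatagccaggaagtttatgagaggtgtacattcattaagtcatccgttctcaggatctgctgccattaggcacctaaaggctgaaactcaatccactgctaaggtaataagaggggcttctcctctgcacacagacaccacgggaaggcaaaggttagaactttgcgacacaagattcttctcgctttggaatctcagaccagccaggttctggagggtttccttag
Dpy19l2: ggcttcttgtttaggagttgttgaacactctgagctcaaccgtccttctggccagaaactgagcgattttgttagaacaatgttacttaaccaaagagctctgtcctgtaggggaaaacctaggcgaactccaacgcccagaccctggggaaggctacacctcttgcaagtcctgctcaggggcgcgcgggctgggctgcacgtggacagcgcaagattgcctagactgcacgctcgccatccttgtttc
Gopc: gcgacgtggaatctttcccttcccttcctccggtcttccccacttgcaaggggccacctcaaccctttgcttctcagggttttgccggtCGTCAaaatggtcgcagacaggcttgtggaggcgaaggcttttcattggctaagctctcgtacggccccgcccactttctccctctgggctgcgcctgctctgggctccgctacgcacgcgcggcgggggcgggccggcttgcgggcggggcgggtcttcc

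TGACG was found in 5 of the 9 matched promoters (Acrbp, Zpbp2, Spaca1, Spaca3 and Gopc), beside 17.8% of 32851 promoters of the same length. The full palindrome TGACGTCA was found in 0 of 9, beside 1.55% of all promoters. The X-box arm was found in Acrbp and Spaca1, 2 of 9, beside 15.7% of all promoters. It was first searched as GTTNCC, which was found in 5 of 9 and in 39.4% of all promoters, and was narrowed to GTTGCC and GTTACC after those matches had been seen, so neither count is independent of the sequences. In Spaca1 the matches stood 69, 59 and 46 bases before the RefSeq start, the last being the X-box arm, and downstream of the GENCODE start. The promoters of Zpbp, Dpy19l2, Spaca4 and Spaca7 held no match to these letters in this window. The Gopc promoter had 22 CpG dinucleotides and 65.2% GC, the Zpbp promoter 4 and 46.8%, and the median promoter 6 and 52.4%.

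Acrosin and its binding protein, both of the acrosomal matrix, were a little lower in mean transcript level in KOStra8, with overlapping groups. The differences in mean were 1.76 (Acr) and 1.73 (Acrbp) times the SD of the HETStra8 mice. Acr (ENSMUSG00000022622, chr15:89568326-89574585, + strand, GRCm38) encodes acrosin, the serine protease of the acrosome, and was at 229, 215 and 206 CPM in HETStra8 mice 1, 2 and 3 and at 182, 212 and 195 CPM in KOStra8 mice 1, 2 and 3. KOStra8 mouse 1 was the lowest, and KOStra8 mouse 2 lay among the HETStra8 values. The means were 217 ± 11.5 and 196 ± 14.8 CPM (SD, n = 3 each), a log2 fold change of -0.14 (SE 0.077, 95% interval -0.31 to 0.02, edgeR adjusted p = 0.471).

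Acrbp (ENSMUSG00000072770, chr6:125049689-125063267, + strand) encodes the protein that binds proacrosin, the inactive form of acrosin. It was at 232, 230.4 and 218 CPM in the HETStra8 mice and at 196, 235 and 211 CPM in the KOStra8 mice. KOStra8 mouse 2 was the highest of the 6 and KOStra8 mouse 1 the lowest, so the groups overlapped. The log2 fold change was -0.09 (SE 0.078, 95% interval -0.25 to 0.08, edgeR adjusted p = 0.687). Of the 50-base sequences of Acrbp transcripts, 29.8% also occur in its overlapping genes 4930557K07Rik (52 to 157 counts per mouse) or Gm44597 (0 to 10 counts). Few counts were thus assigned to these genes. How reads that fit both Acrbp and an overlapping gene were counted is not given in the sources used here.

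Acr and Acrbp kept a nearly fixed ratio from mouse to mouse. The log2 ratio of their raw counts, which does not depend on scaling, was -0.02, -0.10 and -0.08 in the HETStra8 mice and -0.11, -0.15 and -0.11 in the KOStra8 mice. The groups did not overlap, which held for 11 of the 45 pairs of members, and the difference was only -0.05. The exact two-sided permutation p of 0.1 was the smallest that 3 mice against 3 allow (0.3 adjusted over the 3 ratios tested). Over the 6 mice the SD of this log2 ratio was 0.042, which ranked 2 among the 45 pairs of members in order of increasing SD, where the median was 0.161.

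The zona-binding paralogs differed in whether their genotype groups overlapped. Zpbp (ENSMUSG00000020193, chr11:11279626-11462408, - strand) encodes a zona pellucida binding protein of the acrosomal matrix. It was at 169, 168 and 186 CPM in the HETStra8 mice and at 205, 193 and 190.4 CPM in the KOStra8 mice. Every KOStra8 mouse lay above every HETStra8 mouse, with a gap between HETStra8 mouse 3 and KOStra8 mouse 3 that was smaller than either group's SD. The means were 175 ± 10.1 and 196 ± 7.96 CPM (SD, n = 3 each), and the log2 fold change of 0.17 (SE 0.074, 95% interval 0.01 to 0.32, unadjusted p = 0.039) had an edgeR adjusted p of 0.383.

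Zpbp2 (ENSMUSG00000017195, chr11:98551097-98558665, + strand), its paralog, was at 241, 244 and 229 CPM in the HETStra8 mice and at 229, 249 and 261 CPM in the KOStra8 mice. KOStra8 mouse 3 was the highest and KOStra8 mouse 1 the lowest, with the HETStra8 mice between them. The log2 fold change was 0.05 (SE 0.073, 95% interval -0.11 to 0.20, edgeR adjusted p = 0.825). The log2 count ratio of Zpbp to Zpbp2 was -0.51, -0.54 and -0.30 in HETStra8 and -0.16, -0.37 and -0.46 in KOStra8, a difference of 0.12 that did not pass the exact two-sided permutation test (p = 0.4, 0.5 adjusted over the 3 ratios). Spata48, on the opposite strand, overlaps Zpbp, with 1713 to 2325 counts per mouse and 4.17% of the 50-base sequences of Zpbp shared, and the strand setting of the counting was not given in the sources used here.

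The 4 sperm acrosome associated (Spaca) genes had overlapping groups throughout. Spaca1 (ENSMUSG00000028264, chr4:34024874-34050191, - strand), whose product is a protein of the inner acrosomal membrane, was at 122, 130.0 and 152 CPM in the HETStra8 mice and at 132, 161 and 143 CPM in the KOStra8 mice. Its log2 fold change was 0.11 (SE 0.097, 95% interval -0.10 to 0.32, edgeR adjusted p = 0.679). KOStra8 mouse 2 and HETStra8 mouse 3 were the highest.

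Spaca3 (ENSMUSG00000053184, chr11:80858365-80867814, + strand) encodes a lysozyme-like protein of the acrosome. It was at 76.5, 67.3 and 75.95 CPM in the HETStra8 mice and at 67.9, 79.8 and 63.8 CPM in the KOStra8 mice, with KOStra8 mice at both ends of the range. The log2 fold change was -0.06 (SE 0.097, edgeR adjusted p = 0.849). Its lysozyme-family relatives were read from the same fit, and none of the 6 passed an edgeR adjusted p under 0.05. Lyzl1 had a log2 fold change of 0.12, Lyzl4 of -0.07, Lyzl6 of -0.04 and Spaca5 of -0.12. Lyz1, below 1 CPM in every mouse, had 0.96 (SE 0.709), and Lyz2, the lysozyme of macrophages, had -0.38 (SE 0.192).

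Spaca4 (ENSMUSG00000070563, chr7:45725107-45725813, - strand) encodes a membrane-anchored protein of the Ly6 family. It was at 73.9, 59.8 and 67.7 CPM in the HETStra8 mice and at 58.7, 66.5 and 54.6 CPM in the KOStra8 mice. KOStra8 mouse 3 was the lowest and HETStra8 mouse 1 the highest, and HETStra8 mouse 2 lay below KOStra8 mouse 2. The log2 fold change of -0.16 (SE 0.101, 95% interval -0.38 to 0.05, edgeR adjusted p = 0.526) was the lowest of the 10. Fam83e lies over Spaca4 on the opposite strand and had 2224 to 2855 counts per mouse, about as many as Spaca4, with no 50-base sequence of Spaca4 transcripts shared.

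Spaca7 (ENSMUSG00000010435, chr8:12573029-12600744, + strand), which encodes a protein that the acrosome releases, had nearly the same mean in both groups and the most uneven HETStra8 mice. It was at 63.4, 70.1 and 87.4 CPM in the HETStra8 mice and at 70.1, 76 and 73.5 CPM in the KOStra8 mice. The CV between mice was 16.8% in HETStra8, where mouse 3 stood high, and 4.06% in KOStra8. The log2 fold change was -0.01 (SE 0.107, edgeR adjusted p = 0.983).

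The pair that builds and anchors the vesicle was higher in mean in KOStra8. Dpy19l2 (ENSMUSG00000085576, chr9:24557047-24696293, - strand) encodes the inner nuclear membrane protein that ties the acrosome to the nucleus. It was at 209, 229 and 227 CPM in the HETStra8 mice and at 241, 238 and 254 CPM in the KOStra8 mice, without overlap. The means were 222 ± 11.0 and 244 ± 8.45 CPM (SD, n = 3 each), and the log2 fold change was 0.14 (SE 0.070, 95% interval -0.01 to 0.29, edgeR adjusted p = 0.432). Its paralogs had log2 fold changes of 0.13 (Dpy19l1), -0.17 (Dpy19l3) and 0.27 (Dpy19l4), with edgeR adjusted p of 0.516, 0.713 and 0.471. Cypt4 lies within Dpy19l2 on the opposite strand, with 5432 to 6381 counts per mouse and no 50-base sequence shared.

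Fam209, whose product is a partner of DPY19L2, had a log2 fold change of 0.04 (SE 0.082, edgeR adjusted p = 0.876). The log2 count ratio of Dpy19l2 to Fam209 was 1.21, 1.54 and 1.40 in HETStra8 and 1.476, 1.372 and 1.599 in KOStra8. The groups overlapped, and the difference of 0.10 gave an exact two-sided permutation p of 0.5 (0.5 adjusted over the 3 ratios).

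Gopc (ENSMUSG00000019861, chr10:52335850-52382124, - strand) encodes a PDZ protein of the Golgi that serves in vesicle traffic, in spermatids and in other cells. It was at 32.9, 33.9 and 38.0 CPM in the HETStra8 mice and at 41.6, 39.97 and 40.1 CPM in the KOStra8 mice. The KOStra8 mice lay close together and above every HETStra8 mouse. The means were 35.0 ± 2.71 and 40.6 ± 0.882 CPM (SD, n = 3 each), and the log2 fold change of 0.21 (SE 0.093, 95% interval 0.01 to 0.41, unadjusted p = 0.037) had an edgeR adjusted p of 0.379.

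Zpbp, Dpy19l2 and Gopc were thus 3 of 10 whose groups did not overlap with KOStra8 higher, beside 9.33% of all genes tested, and 0 of 10 did not overlap with KOStra8 lower, beside 8.43%. The extremes were spread over the mice. KOStra8 mouse 2 was the highest of the 6 mice for 3 members and the lowest for 0, KOStra8 mouse 1 was the highest for 2 and the lowest for 3, and HETStra8 mouse 1 was the highest for 2 and the lowest for 4. The summed level of the 10 transcripts was 1447 to 1488 CPM in HETStra8 and 1423 to 1549 CPM in KOStra8.

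**Figure D2:**
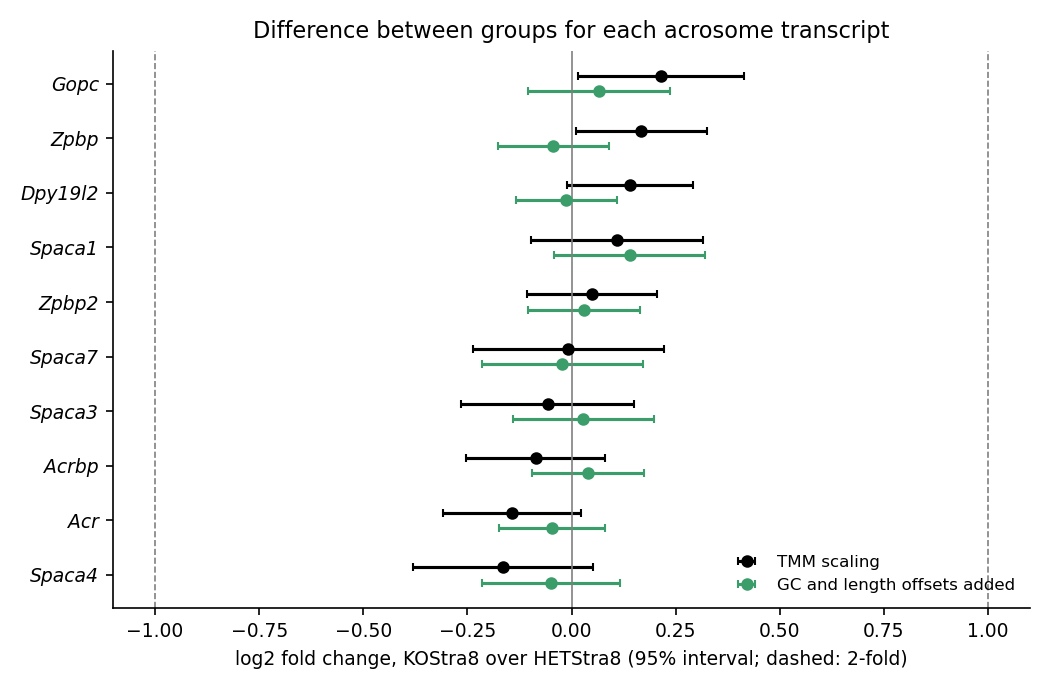
Log2 fold change, KOStra8 over HETStra8 (x axis), with its 95% interval for each acrosome transcript (y axis), with TMM scaling (black) and with offsets for GC content and transcript length added (green), and dashed lines at a 2-fold difference. With TMM scaling the intervals of Zpbp and Gopc lie just above 0, and with the offsets all 10 intervals span 0.

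The members differed among themselves in a regular way: those with AT-rich transcripts were the ones higher in KOStra8. The 3 members whose groups did not overlap had the lowest GC content of the longest transcript, 40.3% (Zpbp), 41.7% (Dpy19l2) and 43.1% (Gopc), and the lowest log2 fold change belonged to the most GC-rich, Spaca4 (60.1%). Across the 10 members the log2 fold change and GC content had a Spearman correlation of -0.89. All 10 points come from the same 6 libraries, and the relation is also present over 48 other acrosome genes (-0.79) and over 21457 tested genes (-0.46), so it is a description and is not particular to the members. The median log2 fold change over all genes was 0.31 in genes of at most 40% GC, 0.14 in those of 40 to 45%, -0.09 in those of 50 to 55% and -0.14 in those above 60%.

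When each library was corrected with its own curve on transcript length and GC content, the differences of most members shrank. Zpbp then had a log2 fold change of -0.04, Dpy19l2 of -0.01 and Gopc of 0.07, and Acr, Acrbp and Spaca4 had -0.05, 0.04 and -0.05. Spaca1 had the highest, 0.14 (SE 0.084, edgeR adjusted p = 0.759). Under these offsets 0 of 10 members had an unadjusted p under 0.05 in either direction, beside 7.51% of all genes, and 0 of 10 had groups without overlap, beside 13.3%. The correlation with GC content over the members was then -0.13. What gave the libraries their different GC trends was not tested. Over all genes these trends did not overlap between HETStra8 and KOStra8. A GC trend of the libraries and a genotype difference that follows GC content therefore cannot be told apart, and the offsets take out both.

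**Figure D3:**
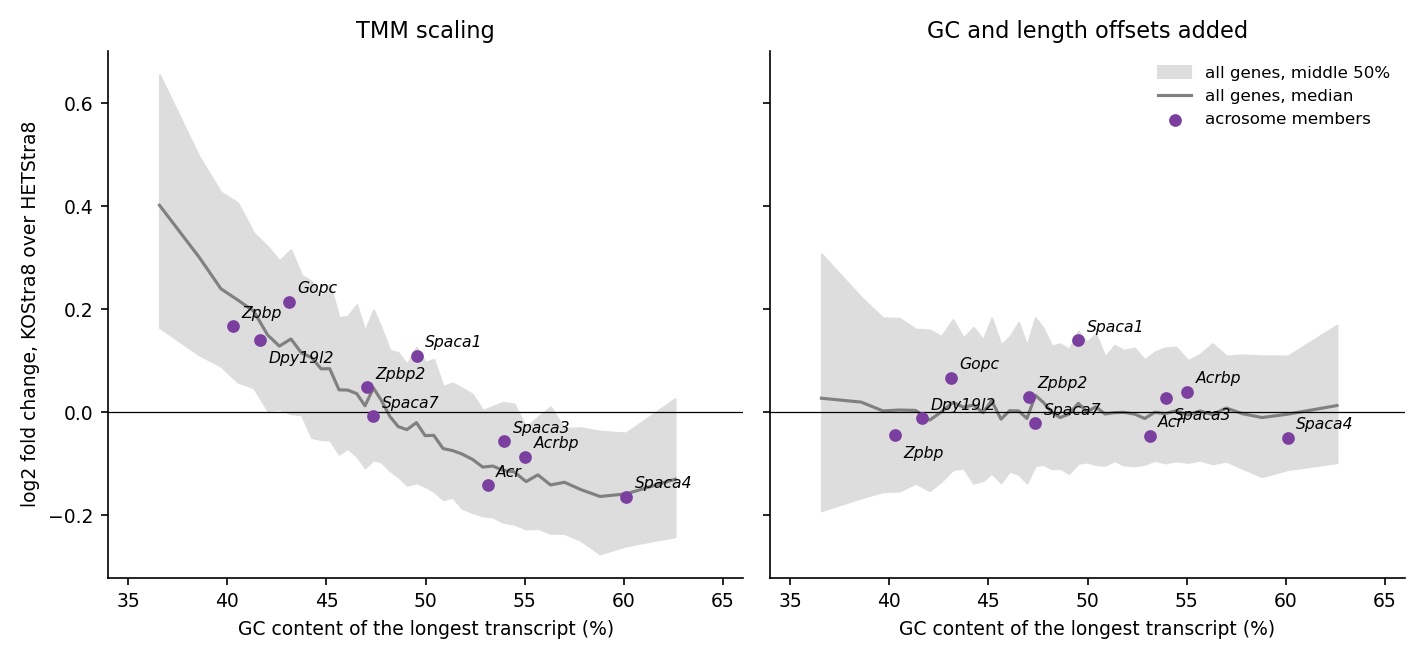
Log2 fold change, KOStra8 over HETStra8 (y axis), against the GC content of the longest transcript in percent (x axis) for the 10 acrosome members (purple points) with TMM scaling (left) and with GC and length offsets added (right), over the median (line) and middle 50% (grey band) of all genes tested. On the left the members fall along the downward line of all genes, with a Spearman correlation of -0.89 over the 10, and on the right they lie around 0, with -0.13.

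Taken mouse by mouse, the relation to GC content separated the groups over all genes tested but not over the members. Over the 10 members, each mouse's deviation from the mean of all 6 had a Spearman correlation with GC content of 0.61, 0.38 and 0.28 in HETStra8 mice 1, 2 and 3 and of -0.79, 0.43 and -0.87 in KOStra8 mice 1, 2 and 3. Over all genes it was 0.39, 0.29 and -0.05 and -0.24, -0.19 and -0.37, so HETStra8 mouse 3 and KOStra8 mouse 2 differed in sign between the members and all genes. Among the 45 pairs of members, the SD of the log2 ratio over the 6 mice was the smallest for Zpbp to Gopc, 0.040, which are 2.83 percentage points of GC apart, and the largest for Spaca4 to Gopc, 0.262, which are 17.0 points apart. The order of the pairs did not follow GC content throughout. Zpbp2 to Spaca7, 0.31 points apart, had an SD of 0.184 (rank 29), and Spaca3 to Spaca4, 6.15 points apart, had 0.073 (rank 3).

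Compared per length, as CPM per kilobase of annotated exon in HETStra8, the level was highest for Zpbp2 (141 ± 4.70, SD, n = 3) and Acr (138 ± 7.34), whose ranges over the 6 mice overlapped. Spaca4 (94.95 ± 10.03), Spaca1 (84.2 ± 9.72), Spaca3 (77.03 ± 5.42), Spaca7 (75.2 ± 12.6), Acrbp (69.3 ± 2.33) and Dpy19l2 (64.4 ± 3.18) followed, with Spaca4 below Acr without overlap and each of these 6 overlapping the next in range. Zpbp (41.1 ± 2.38) lay below Dpy19l2, and Gopc (3.19 ± 0.247) below Zpbp, without overlap in either case. Among all tested genes these levels were at percentiles 92.4 to 98.3, with the exception of Gopc at 53.1. The order rests in part on the annotation, since Acrbp reached 121 and Gopc 5.97 CPM per kilobase when the longest transcript stood in for all exons.

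Other genes of acrosome formation, 48 in 3 lists, were read from the same fit. Of these, 0 of 48 passed an edgeR adjusted p under 0.05 in either direction, beside 0.0233% of all genes. The count was 1 with DESeq2, 1 with the replicate number as a block, 4 with no filter on low counts and 8 without HETStra8 mouse 3. Without that mouse, 4 of 48 passed an edgeR adjusted p under 0.01, beside 443 of 22091 genes. At an unadjusted p under 0.05 with all mice, 6 of the 48 were higher and 3 lower, beside 7.13% and 5.12% of all genes. The median log2 fold change of the 48 was -0.01, the same as over all genes tested. Of 23 genes for proteins of the acrosomal matrix and membrane, 2 were higher and 0 lower at that p (median -0.04). The highest was Izumo3, 0.27 (edgeR adjusted p = 0.363), and the lowest Spaca9, -0.16 (edgeR adjusted p = 0.444).

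Of 12 genes of the acroplaxome and perinuclear theca, the cytoskeletal sheets that hold the acrosome to the nucleus, 0 were higher and 3 lower at an unadjusted edgeR p under 0.05 (median -0.13), beside 7.13% and 5.12% of all genes. With the GC and length offsets 1 was higher and 0 lower (median -0.04), so the direction of this count turned. Actl7b, a testis actin-like protein, had the lowest log2 fold change, -0.23 (SE 0.079, edgeR adjusted p = 0.284). Cylc2, a basic protein of the theca, had the highest, 0.88 (SE 0.421, edgeR adjusted p = 0.497). It was at 112, 195 and 319 CPM in the HETStra8 mice and at 368, 394 and 387 CPM in the KOStra8 mice, so the HETStra8 mice differed far more among themselves than the KOStra8 mice did.

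Of 13 genes of Golgi and vesicle traffic, 4 were higher and 0 lower at an unadjusted edgeR p under 0.05 (median 0.02), beside 7.13% and 5.12% of all genes. With the GC and length offsets 2 were higher and 1 lower (median 0.03). Their summed level, with TMM scaling, was 1828 to 2003 CPM in HETStra8 and 2033 to 2147 CPM in KOStra8, without overlap. Trip11, which encodes the Golgi tether GMAP-210, had the highest log2 fold change, 0.50 (SE 0.110, edgeR adjusted p = 0.117). It was at 53.3, 48.7 and 68.2 CPM in the HETStra8 mice and at 81.0, 79.9 and 80.0 CPM in the KOStra8 mice. Its adjusted p was 0.0039 with DESeq2 and 0.031 with edgeR and the replicate number as a block. It was 0.00021 with edgeR when HETStra8 mouse 3 was left out, and 2.9e-05 with edgeR and no filter on low counts. With the GC and length offsets it had 0.32 (edgeR adjusted p = 0.408). Atg7, an autophagy enzyme, had the lowest, -0.28 (edgeR adjusted p = 0.451).

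**Figure D4:**
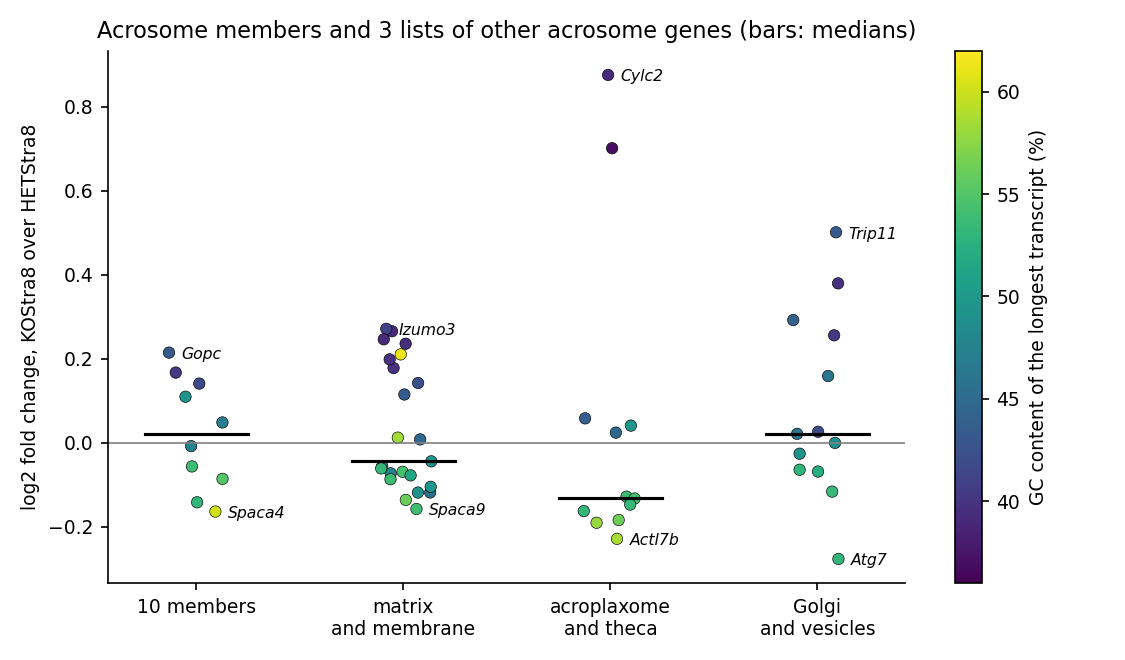
Log2 fold change, KOStra8 over HETStra8 (y axis), of the 10 members and of 3 lists of other acrosome genes (x axis), each point a gene coloured by the GC content of its longest transcript in percent and each bar the median of its list. The medians lie at 0.02, -0.04, -0.13 and 0.02, and the named genes are the highest and lowest of each list.

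Markers of the cells that make these transcripts were measured beside them. The summed level of 8 round spermatid markers was 1108 to 1196 CPM in HETStra8 and 1054 to 1123 CPM in KOStra8, and that of 9 elongating spermatid markers 16749 to 16861 and 15031 to 16804 CPM. The log2 fold change was below 0 for 6 of 8 round and 8 of 9 elongating spermatid markers. The same held for 5 of 7 pachytene and diplotene, 4 of 8 spermatogonia and 2 of 4 endothelial markers. It was above 0 for 48.5% of all genes tested. KOStra8 lay lower without overlap for 2 round and 3 elongating spermatid markers, beside 8.43% of all genes. With the GC and length offsets, 6 round and 5 elongating spermatid markers were below 0. Of 7 markers of leptotene and zygotene spermatocytes, 6 had a log2 fold change above 0 (median of the 7, 0.15). The sum of the 7 was 288 to 542 CPM in HETStra8 and 590 to 611 CPM in KOStra8. KOStra8 lay higher without overlap for 1 of the 7, beside 9.33% of all genes. At an unadjusted edgeR p under 0.05, 0 of the 7 were higher or lower, beside 7.13% and 5.12% of all genes. All 8 Sertoli cell markers had a log2 fold change below 0, and their sum was 861 to 1047 and 714 to 833 CPM. The log2 fold change was also below 0 for all 6 Leydig cell markers (sums of 487 to 733 and 410.0 to 527 CPM), all 4 macrophage markers and all 4 peritubular cell markers. With the GC and length offsets it was below 0 for 6 of 8 Sertoli, 6 of 6 Leydig, 3 of 4 macrophage and 2 of 4 peritubular markers, and above 0 for 4 of 7 leptotene and zygotene markers. No marker of these lists passed an edgeR adjusted p under 0.05. The sums of 6 epididymis markers were 0.420 to 8.40 CPM in HETStra8, where mouse 1 was the highest, and 0 to 0.200 CPM in KOStra8, with Lcn8 at 0 in every mouse. The part of these cell types in the values of the members was not tested.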

How the data were processed

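Testis RNA of 6 mice, 1 library each, was sequenced by the study from directional libraries in paired-end reads. Raw counts of reads per Ensembl gene were deposited as 1 table per mouse. Their processing notes name Trimmomatic, STAR 2.7.1a, Picard 2.20.4, StringTie 2.0.4, featureCounts 1.6.0 and HTSeq without roles, and the builds mm10 and GRCm38. Which tool counted, and with which strand setting, is not given in the sources used here, so reads of overlapping genes on opposite strands may not be told apart. Symbols, positions, GC content and lengths came from GENCODE M21.

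Counts of all 6 mice were fitted in R 4.3.3 with edgeR 4.0.16 (limma 3.58.1): filterByExpr defaults, which kept 21465 of 55536 genes, TMM scaling, and a robust quasi-likelihood model of genotype alone. Its F test was two-sided, with p-values adjusted over all genes tested by Benjamini-Hochberg. The cutoffs, those of the study, were a fold of 2 at an adjusted p of 0.01. At them the study reports many more genes than the 2 called here, and its RNA sequencing methods name no test. A standard error was taken from the F statistic, and a prior count of 2 was added for log2 CPM. Ratios of member pairs were compared with the exact two-sided permutation test over mice, which with 3 against 3 cannot go below 0.1. The edgeR p-values set the difference between the groups against the spread between the mice of a group. Library totals lay between 28875108 and 36526695 counts.

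The alternatives tried were library totals or the size factors of DESeq2, no filter on low counts or at least 10 in every sample, the DESeq2 1.42.0 Wald test, the replicate number as a block, offsets from a loess curve per library (span 0.3, fitted where log2 CPM passed 2; 8 genes lacking a GC value kept their counts), an adjusted p of 0.05, and leaving out each mouse. Steps were tested on simulated data.

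All 10 members are named. Of the other lists, the highest and lowest log2 fold change in each acrosome list, any gene called at an adjusted p of 0.01, the Dpy19l and lysozyme paralogs, Fam209 and Sel1l are named. The members and lists were chosen with earlier results of these data known. Shared sequence is the share of a gene's 50-base transcript sequences that another gene also holds. Motifs were searched on both strands of RefSeq promoters, and the X-box search was changed after its first matches had been seen.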

Additional observations from a re-analysis of the deposited data

How the results depend on the processing

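None of the 10 members was called under any alternative or with any mouse left out, and the lowest adjusted p of a member was 0.0805 (Zpbp without HETStra8 mouse 3, edgeR). The count called over all genes, 2 as reported, was 39 with no filter on low counts, 6 with the DESeq2 Wald test, 5 with the replicate block, 5 at an adjusted p under 0.05 at any fold, and 1 to 44 with 1 mouse left out (44 without HETStra8 mouse 3, 42 of them higher, 9 without HETStra8 mouse 1, 4 without KOStra8 mouse 1, and 1 without KOStra8 mouse 2 or 3). Of the 48 other acrosome genes, 0 to 1 were called with 1 mouse left out, the 1 being Cylc1, named here after its values were seen: its log2 fold change was 0.70 (edgeR adjusted p = 0.417) with all mice and 1.05 (edgeR adjusted p = 6.4e-05) without HETStra8 mouse 3. Trip11 had an adjusted p of 0.00021 (edgeR) without that mouse, 2.9e-05 (edgeR) with no filter and 0.0039 with DESeq2. Without KOStra8 mouse 2 or 3, Sel1l had an edgeR adjusted p of 0.013 or 0.012. The cause of these changes was not tested.

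Several values changed sign. With the GC and length offsets, Acrbp had a log2 fold change of 0.039, Zpbp -0.044, Spaca3 0.028, Dpy19l2 -0.012, Dpy19l1 -0.030, Dpy19l4 -0.057 and Lyzl4 0.020, and with the replicate block added to them 0.038, -0.045, 0.027, -0.012, -0.031, -0.057 and 0.018. Spaca7 had 0.0025 with library totals and 0.0036 with the replicate block. With 1 mouse left out, Spaca7 ran from -0.11 to 0.14, Spaca3 from -0.15 to 0.010, Fam209 from -0.013 to 0.083, Lyzl1 from -0.031 to 0.24, Lyzl4 from -0.18 to 0.021, Lyzl6 from -0.10 to 0.055 and Spaca5 from -0.32 to 0.035. At an unadjusted edgeR p under 0.05, 2 members were higher and 0 lower with all mice, beside 2630 of 21465 genes in either direction. Without HETStra8 mouse 3, 4 members were higher and 1 lower, beside 4375 of 22091 genes. Without HETStra8 mouse 2 or KOStra8 mouse 2, 0 were higher and 1 lower, beside 1951 of 22144 and 2372 of 22130 genes. Without HETStra8 mouse 1, KOStra8 mouse 1 or KOStra8 mouse 3, 0 members were higher or lower. The counts over all genes were then 1915 of 22173, 2051 of 22031 and 1444 of 22023. Lyz1, 0.96 as reported, ran from 0.60 to 1.97 with 1 mouse left out (1.97 without HETStra8 mouse 2), and was not tested with at least 10 counts in every sample.

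The deviations of mice with the same number had correlations of -0.07, -0.12 and 0.18, beside -0.19 to 0.25 for mice of unlike number. These values cannot decide whether the numbers pair the mice, since the deviations of 3 mice from their group mean sum to 0. The labels do not say so either. The replicate block left 0 members called. Of the 48 other acrosome genes, 1 passed an edgeR adjusted p under 0.05 with the replicate block, Trip11 (0.031). The CV from counting alone was 1.12 to 2.83% for the members, and it was below the CV between mice in both groups for each member with the exception of Gopc, where it was 2.83% beside 2.18% in KOStra8.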

Other observations

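Of 21455 tested genes that are no members, 105 had a Pearson correlation above 0.9 over the 6 mice with the mean of the members' standardised log2 CPM. The highest were Nfia (0.993), a transcription factor at 8.51 CPM in HETStra8 and 8.71 CPM in KOStra8, the pseudogene B230303A05Rik (0.986), the small nuclear RNA Gm23027 (0.986), 1700084M14Rik (0.980) and Dpp10 (0.978). These are descriptions over 6 points that share their libraries, and 4 of the 5 genes were below 10 CPM.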
